A study of Arabidopsis thaliana with 12 samples.

Results

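The salt response of the transgenic line iU1-52 was compared with that of the wild type Col-0 by the interaction of genotype and treatment. For each transcript, the difference between seedlings on salt and seedlings without salt was taken within each line on the log2 scale, and the difference of Col-0 was subtracted from that of iU1-52. All 12 arrays of the series entered this comparison, in 4 groups of 3. The groups were Col-0 and iU1-52, each sown on half-strength MS medium without NaCl or on the same medium with 200 mM NaCl, and whole seedlings were harvested at 14 days. In iU1-52, double-stranded RNA interference (dsRNAi) against *GlcNA.UT1* was introduced into plants that carry the *glcna.ut2-1* mutation, and Col-0 carries neither. iU1-52 is a single transgenic line, the promoter of the dsRNAi construct is not given in the sources used here, and no *glcna.ut2-1* plants without the construct were on the arrays, so effects of the mutation and of the construct cannot be told apart.

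The enzymes encoded by *GlcNA.UT1* and *GlcNA.UT2* (AT2G35020) make UDP-GlcNAc, the activated sugar that starts the N-glycans of secreted and membrane proteins. A seedling that leaves the seed turns off the genes of embryo maturation, uses up the seed oil and builds chloroplasts with their light-harvesting antennae and photosystems. Abscisic acid (ABA) keeps the embryo program on and delays this transition, and salt raises ABA. Because the seeds germinated on the plates, the response to salt and the developmental stage reached by the same age cannot be told apart in these samples. In RNA from whole seedlings, fewer cells of a type and less RNA per cell cannot be told apart either.

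A positive interaction means that the signal on salt relative to MS was higher in iU1-52 than in Col-0, either through a stronger rise or through a weaker fall, and a negative interaction means the reverse. A feature (a gene, or a probe that matched no gene) was called at a limma adjusted p under 0.05 together with an interaction of at least 2-fold, which is 1 on the log2 scale. Levels are log2 quantile normalized intensities, and values of 3 arrays are given in the order of replicates 1, 2 and 3. Levels of different genes come from different probes and are not compared with each other.

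The share of spots well above background lay between 75.4% and 79.4% over the 12 arrays. The iU1-52 array on NaCl of replicate 1 stood apart. The median SD between replicates was 0.079 in Col-0 on MS, 0.071 in Col-0 on NaCl, 0.079 in iU1-52 on MS and 0.21 in iU1-52 on NaCl, and the 75th percentile of the signal of that array was 2502.5, against 3871.5 and 3919.5 on the other arrays of its group. Counts are therefore also given without it where they moved. Each of the 3 slides held 1 array of every group, so the interaction could also be taken within a slide, but each group kept 1 position on the slides, and position and group cannot be told apart. Transcripts of green tissue were high without salt in both lines, with a mean of the antenna genes between 16.0 and 16.1 on all 6 MS arrays, and the 15 seed storage and oil body genes averaged between 3.10 and 3.41 there. No probe was matched to *GlcNA.UT1*, so its knockdown was not checked here. The brighter of the 2 probes of *GlcNA.UT2* read 12.85, 12.66 and 12.67 in Col-0 and 11.71, 11.84 and 11.62 in iU1-52 on MS, and 12.91, 12.95 and 12.88 and 12.70, 12.26 and 12.19 on NaCl. Its signal was lower in iU1-52 in every comparison of replicates, and its interaction of 0.47 was not called (SE 0.18, adjusted p = 0.07). Where its probes lie relative to the mutation is not given in the sources used here. Interactions of the 4 reference genes *PP2AA3* (AT1G13320), *UBQ10* (AT4G05320), *GAPC2* (AT1G13440) and *TIP41L* (AT4G34270) lay between -0.25 and 0.20, and 0 of them were called.

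The interaction was called for 2187 of 23936 features (9.14%). It was higher than 0 for 904 (3.78%) and lower for 1283 (5.36%), and the median over all features was 0.04. The line difference was called for 83 features on MS (0.347%) and for 2562 on NaCl (10.7%), of which 1183 were higher in iU1-52 (4.94%) and 1379 lower (5.76%). Accordingly, of the 2187 features, 38 differed between the lines on MS and 1961 on NaCl, so nearly all of the called differences between salt responses lay in the seedlings on salt. Among the called features, the median size of the interaction was 1.55, and 680 differed at least 4-fold, 234 of them higher and 446 lower. The sign was the same within each of the 3 slides for 2176 of the 2187, against 14275 of all 23936 features. The call used the same arrays and so favours such agreement. At the limit of 2-fold, the nearest called feature had an interaction of 1.00 (*AT5G49665*), and *AT1G33055*, also at 1.00 after rounding, fell just short. Without the iU1-52 NaCl array of replicate 1, 3150 features were called, 2113 of them among the 2187.

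Salt itself moved many transcripts in both lines. The salt response was called for 5546 features in Col-0 (23.2%; 11.3% higher and 11.9% lower on NaCl) and for 6555 in iU1-52 (27.4%; 13.1% higher and 14.3% lower). Both lines shared 4302 of these, which is 77.6% of the Col-0 features and 65.6% of the iU1-52 features, and 4275 of the 4302 moved in the same direction. Across all features the salt responses of the lines correlated with a Pearson's r of 0.89, given as a description across 23936 features that are not independent replicates. Their SD was 1.32 in Col-0 and 1.64 in iU1-52. The direction was thus shared by nearly all features called in both lines. This count does not cover the 1244 features called in Col-0 alone and the 2253 called in iU1-52 alone.

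**Figure D1:**
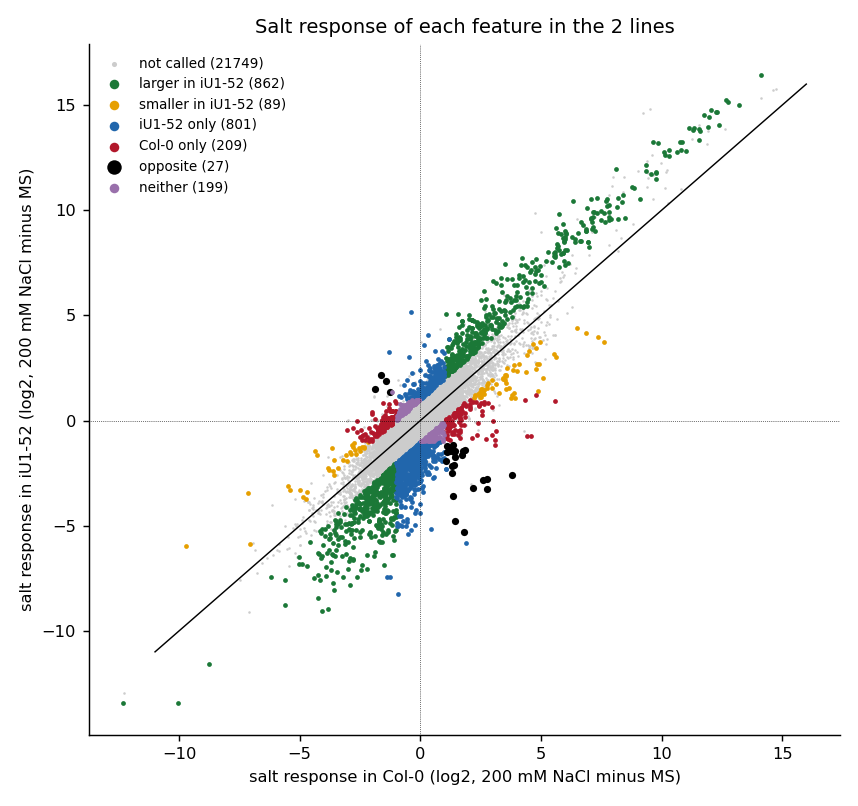
Salt response of each of 23936 features in Col-0 (horizontal axis) and in iU1-52 (vertical axis), in log2 units, with the 2187 called features coloured by their pattern and the line of equal responses drawn in black. The 862 features with a larger response in iU1-52 lie outside the line at both ends, and the 801 with a salt response called only in iU1-52 lie along the vertical axis. The 27 with opposite responses lie mostly below the horizontal axis to the right.

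The called features were sorted by the calls of both salt responses. A response of iU1-52 or of Col-0 alone means that the response of the other line was not called, and an uncalled change can remain there. On the log2 scale, the response was larger in iU1-52 for 862 features, 422 that rose and 440 that fell in both lines. The median response of those that rose was 2.78 in Col-0 and 4.75 in iU1-52, and that of those that fell was -1.80 and -3.87. In 801 features only the iU1-52 response was called, with 240 higher and 561 lower on salt. The 561 had a median of -0.32 in Col-0 and -1.98 in iU1-52. Smaller responses in iU1-52 were found for 89 features, 55 that rose and 34 that fell, and responses of Col-0 alone for 209, 103 that rose and 106 that fell. Opposite responses were called for 27 features, of which 23 rose in Col-0 and fell in iU1-52 and 4 did the reverse. In the remaining 199 neither salt response was called by itself. The share of tested genes called for the interaction was similar on the 5 chromosomes, between 8.84% and 9.27%. Positions within a chromosome were not examined.

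The levels from which the patterns started are given as a description, since the level on MS is part of the salt responses that sorted them. On MS in Col-0, the 561 features that fell in iU1-52 alone had a median level of 12.3, against 10.9 over all features. The 422 features that rose more in iU1-52 started from a median of 5.32, and 140 of them were not well above background on any array of at least 1 group. For features of that kind the fitted interaction is not a measured value, and the difference between the lines on NaCl is given instead, where both were bright. Leaving out the iU1-52 NaCl array of replicate 1 changed the number with a larger response little (422 to 452 rising and 440 to 485 falling), but raised others more. Features that rose in iU1-52 alone went from 240 to 373, and those that fell in iU1-52 alone from 561 to 699. Those that rose in Col-0 alone went from 103 to 190, and those that fell in Col-0 alone from 106 to 251. Features with a smaller response went from 55 to 80 (rising) and from 34 to 53 (falling). Those called in neither line went from 98 to 321 (higher) and from 101 to 214 (lower).

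**Figure D2:**
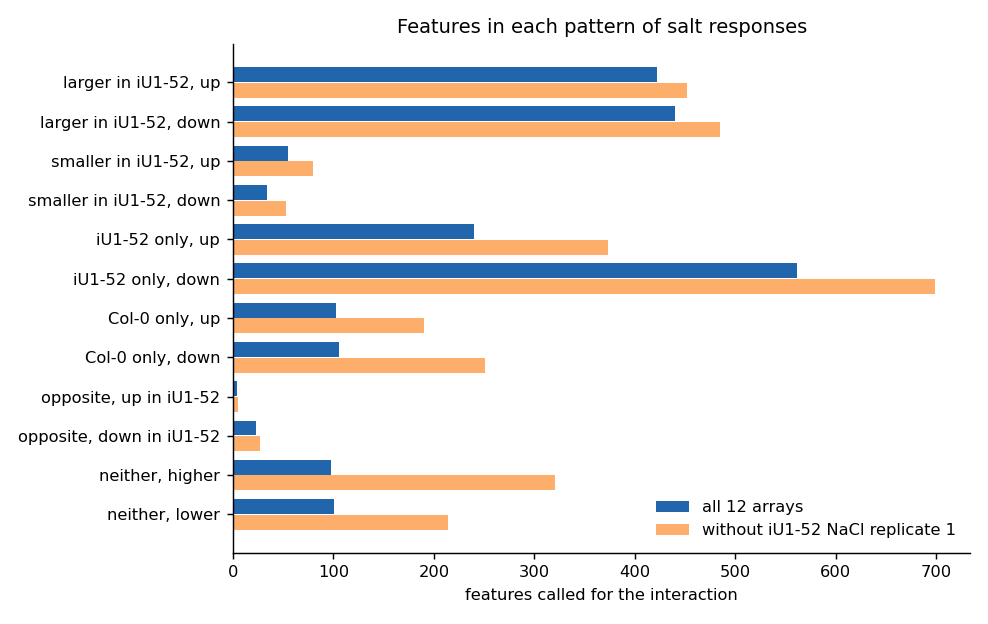
Number of features called for the interaction in each pattern of salt responses, with all 12 arrays (blue) and without the iU1-52 NaCl array of replicate 1 (orange). The largest group with all arrays was the 561 features that fell in iU1-52 alone, and opposite responses were rare under both settings, with 4 and 23 features against 5 and 27.

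The gene lists were chosen with earlier results of these data known, so their counts beside the share of all features are descriptive. Of the 20 genes of the light-harvesting antenna, which bind chlorophyll and pass light energy to the photosystems, 19 were called and all 19 were lower, against 5.36% of all features. Their median salt response was -0.19 in Col-0 and -2.66 in iU1-52. All 22 nuclear genes of photosystem core subunits that were tested were called lower as well, with medians of -0.38 and -2.91. For most of these genes, 17 of the antenna and 20 of the photosystem core, the salt response was called in iU1-52 alone. Col-0 showed a smaller fall. The mean of its photosystem core genes was 16.93, 16.96 and 16.84 on MS and 16.41, 16.41 and 16.47 on NaCl. The counts of 19 and 22 were the same in every fit with 1 array left out.

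The mean of the 20 antenna genes was 15.7, 15.8 and 15.8 in Col-0 on NaCl and 13.6, 13.4 and 13.1 in iU1-52 on NaCl, compared with 16.0 to 16.1 in the 6 samples without salt. The lowest interaction was that of *LHB1B1* (AT2G34430), an antenna protein of photosystem II, which read 17.48, 17.55 and 17.32 in Col-0 on MS, 16.82, 17.49 and 17.49 in Col-0 on NaCl, 17.64, 17.61 and 17.44 in iU1-52 on MS and 13.87, 13.65 and 12.33 in iU1-52 on NaCl. The 3 iU1-52 samples on salt stood well below the other 9, which overlapped, and the interaction was -4.09 (SE 0.48, adjusted p = 0.00022), with all 4 probes of the gene called. *LHCB2.3* (AT3G27690), another antenna protein of photosystem II, fell by 0.98 in Col-0 and by 5 in iU1-52 (interaction -4.02, adjusted p = 2.2e-05). The exception in the list was *LHCB4.3* (AT2G40100), a minor antenna protein, with responses of -0.57 and -0.29 and an interaction of 0.28 (adjusted p = 0.52). *CAB3* (AT1G29910) had an interaction of -1.40 (SE 0.17), and its level on salt in iU1-52 remained at 17.26, 16.80 and 16.73. The 3 probes of *CAB3*, all called, ranged from -2.97 to -1.40. Transcripts of the *CAB* genes are close in sequence, and signal from one may reach the probe of another.

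Among photosystem subunits the interactions ran from -3.28 to -1.57. *PSAH2* (AT1G52230), a subunit of photosystem I at which the mobile antenna docks, read 13.90, 13.86 and 13.88 in Col-0 on NaCl and 11.13, 10.46 and 10.02 in iU1-52 on NaCl, from 14.29, 14.44 and 14.05 and 14.37, 14.00 and 14.23 on MS. *PSAN* (AT5G64040), on the lumenal side of photosystem I, did not pass in Col-0 (0.12, adjusted p = 0.73) and fell by 3.11 in iU1-52. *PSBX* (AT2G06520), a small subunit of photosystem II, had an interaction of -1.57 (SE 0.09), from 17.4 on all 6 MS arrays to 16.93, 16.84 and 16.95 in Col-0 and 15.45, 15.24 and 15.33 in iU1-52.

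The Calvin cycle fixes CO2 with the energy from the photosystems. Of its 18 genes, 10 were called lower and 0 higher, where 5.36% and 3.78% of all features were, and the median interaction was -1.46, with a median response of -0.10 in Col-0 and -1.46 in iU1-52. *RCA* (AT2G39730), the activase that keeps Rubisco working, read 16.96, 16.95 and 16.81 in Col-0 and 17.04, 16.93 and 16.99 in iU1-52 without salt. On NaCl it read 16.44, 16.48 and 16.46 in Col-0 and 14.14, 14.09 and 13.80 in iU1-52, so that the groups did not overlap, and the interaction was -2.53 (SE 0.13, adjusted p = 3.3e-06). The 9 probes of *RCA*, all called, ranged from -3.01 to -1.37. *CP12-2* (AT3G62410), a small protein that ties up 2 Calvin cycle enzymes in the dark, fell in both lines, with responses of -2.08 in Col-0 and -5.35 in iU1-52 (interaction -3.27, SE 0.35). *RBCS1A* (AT1G67090), a small subunit of Rubisco, had an interaction of -0.25 with the brightest of its 13 probes, and the 13 probes ranged from -1.36 to -0.21, with 3 of them called. Its level was between 18.2 and 18.5 on all 12 arrays with the brightest probe, near the top of the scale. *TIM* (AT2G21170), a triose phosphate isomerase of the plastid, had an interaction of 0.02 (adjusted p = 0.90).

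**Figure D3:**
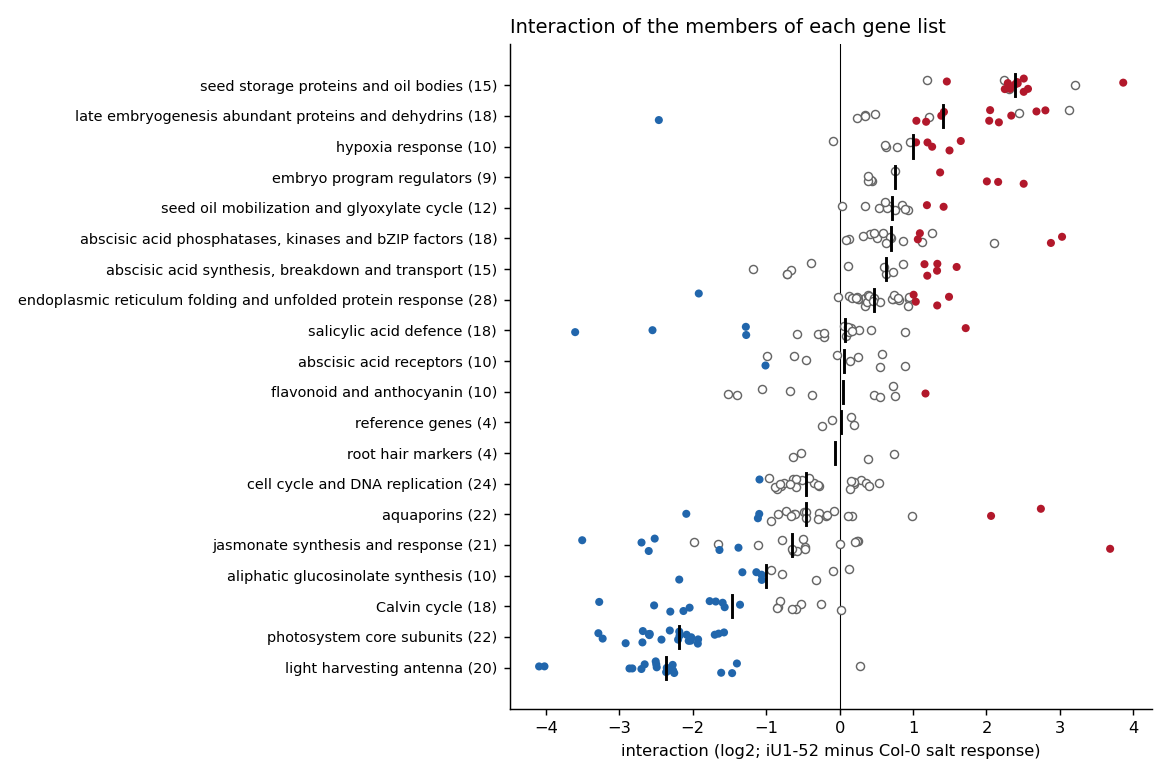
Interaction of every tested member of the 20 gene lists, in log2 units, with called members filled (red, higher; blue, lower), other members open, black bars at the medians and the number tested in brackets. All but 1 of the 42 antenna and photosystem genes are filled blue to the left of 0, and all 15 seed storage and oil body genes lie to the right of 0, at a median of 2.39, 12 of them with a group not above background.

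The genes named for each pattern (at most 3), with *LHB1B1* and *LHCB2.3* among them, were those with the largest interaction among genes with a symbol, a signal well above background on all 12 arrays and the same sign on all 3 slides, and features that missed these criteria could have larger interactions. *CA2* (AT5G14740), a carbonic anhydrase that interconverts CO2 and bicarbonate in leaf cells, read 16.60, 16.88 and 16.81 in Col-0 on MS and 16.87, 16.89 and 16.84 in iU1-52 on MS. On NaCl it read 16.17, 16.33 and 16.18 in Col-0 and 12.70, 12.49 and 11.31 in iU1-52, and the interaction was -4.17 (SE 0.40, adjusted p = 6.9e-05). Among genes that fell in both lines but more in iU1-52, those named by this rule were *FBA5* (AT4G26530), *ESM1* (AT3G14210) and *BBX17* (AT1G49130). *FBA5*, a fructose bisphosphate aldolase, went from 14.92, 15.34 and 15.01 to 12.17, 12.37 and 12 in Col-0 and from 15.48, 15.10 and 15.14 to 8.84, 7.46 and 5.95 in iU1-52, an interaction of -4.92 (SE 0.76). *ESM1*, a modifier of glucosinolate breakdown, went from 17.15, 16.89 and 16.77 to 14.25, 14.23 and 14.43 in Col-0 and from 16.38, 15.97 and 16.25 to 9.62, 8.34 and 8.31 in iU1-52, an interaction of -4.81 (SE 0.42). *BBX17*, a B-box zinc finger protein, had an interaction of -4.53 (SE 0.48), and both of its probes were called. In all 3 genes every iU1-52 sample on salt was lower than every Col-0 sample on salt.

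Glucosinolates are sulfur compounds made in leaves against herbivores. Of 10 tested genes of the aliphatic kind, 5 were called lower and 0 higher, against 5.36% and 3.78% of all features (median interaction -1). In 4 of the 5 the salt response was called in iU1-52 alone. Without the iU1-52 NaCl array of replicate 3, 2 of the 10 were called lower. *MYB29* (AT5G07690), a regulator of this pathway, read 9.86, 9.92 and 9.85 in Col-0 and 7.82, 7.76 and 7.22 in iU1-52 on NaCl, with an interaction of -2.18 (SE 0.31, adjusted p = 0.00072). *CYP79F1* (AT1G16410), which makes the aldoximes from chain-elongated methionine, fell by 2.00 in Col-0 and by 3.33 in iU1-52. *SUR1* (AT2G20610) and *SOT17* (AT1G18590), which act later in the pathway, had interactions of 0.12 and -0.10, and neither was called.

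Genes of embryo maturation lay at the other end. On MS they were near or below background in both lines, and on NaCl they rose in Col-0 and stood higher still in iU1-52. All 15 genes of seed storage proteins and oil bodies rose on salt in both lines, and all 15 were called higher in iU1-52 than in Col-0 on NaCl, against 4.94% of all features, with a median line difference of 2.50 and a range from 1.43 to 3.39. The interaction was called for 11 of the 15, but 12 were not well above background on any array of at least 1 MS group, and of the 3 measured in all groups all 3 were called. The mean of the 15 genes was 12.1, 13.8 and 13.3 in Col-0 and 15.6, 15.4 and 15.6 in iU1-52 on NaCl, so that the lines did not overlap and the Col-0 samples varied more.

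*SESA3* (AT4G27160), a 2S albumin, read 8.64, 12.78 and 11.46 in Col-0 and 14.83, 14.12 and 14.10 in iU1-52 on NaCl. On MS it was not well above background on any of the 6 arrays, so its rise was at least 132-fold in Col-0 and at least 1570-fold in iU1-52, and the line difference on NaCl was 3.39 (adjusted p = 0.0058). Such bounds take the lowest signal well above background on each dim array as the level there. *CRU2* (AT1G03880), a 12S globulin, was higher in iU1-52 on NaCl by 2.89 (adjusted p = 0.013), and it was well above background on 1 of 3 Col-0 and 0 of 3 iU1-52 arrays on MS. *CRA1* (AT5G44120), another 12S globulin, was close to the top of the scale, with 16.05, 17.06 and 16.83 in Col-0 and 18.00, 18.10 and 18.13 in iU1-52, and differed by 1.43 on NaCl (adjusted p = 0.031). It was well above background on 0 of 3 Col-0 and 1 of 3 iU1-52 arrays on MS. *HSD1* (AT5G50600), a steroleosin of the oil body, was measured in every group, with a rise of 9.09 in Col-0 and 10.5 in iU1-52 and an interaction of 1.46 (SE 0.38, adjusted p = 0.018).

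Late embryogenesis abundant (LEA) proteins and dehydrins protect cells as they dry. Of 18, 10 were called higher and 1 lower, against 3.78% and 5.36% of all features, and among the 15 that were measured in every group the counts were 9 and 1. The median response was 4.75 in Col-0 and 7.17 in iU1-52. *EM1* (AT3G51810) was below background on all MS arrays and rose at least 1960-fold in Col-0 and at least 15500-fold in iU1-52, with 14.19, 15.22 and 15.17 in Col-0 and 17.31, 17.84 and 17.87 in iU1-52 on NaCl. *LEA4-5* (AT5G06760) was higher in iU1-52 on NaCl by 1.90, but this difference did not pass (adjusted p = 0.073), and neither did its interaction (adjusted p = 0.065). Its level on MS in Col-0 was 7.01 in replicate 1 and 3.03 and 3.78 in the others. *ERD14* (AT1G76180), a dehydrin that is also made in vegetative tissue, had an interaction of 0.24 (adjusted p = 0.31). The single LEA gene called lower was *COR15B* (AT2G42530), a chloroplast protein of the cold response. It read 11.88, 11.40 and 11.36 in Col-0 on MS and 12.55, 12.37 and 12.60 on NaCl, and 11.76, 11.06 and 11.29 and 10.25, 9.75 and 9.60 in iU1-52, a fall in iU1-52 that Col-0 did not show (interaction -2.46, SE 0.31, adjusted p = 0.00031).

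Of 14 listed regulators of the embryo program, which include factors that drive it and factors that silence it, 9 were tested. Of the 9, 4 were called higher and 0 lower, against 3.78% and 5.36% of all features, and 2 of the 4 were measured in every group. The signal filter can keep a gene for its level on salt alone, and with no filter 4 of 13 were called higher. *ABI5* (AT2G36270), a bZIP factor of ABA-dependent growth arrest, read 9.39, 9.21 and 9.28 in Col-0 and 9.16, 8.98 and 9.12 in iU1-52 on MS. On NaCl it read 11.04, 11.82 and 11.67 in Col-0 and 13.50, 13.83 and 14.09 in iU1-52, so that all 3 iU1-52 samples exceeded all Col-0 samples, and the interaction was 2.51 (SE 0.28, adjusted p = 0.00016). *ABI4* (AT2G40220), an AP2 factor, was not above background on MS and reached 9.49, 9.88 and 10 in Col-0 and 11.82, 11.49 and 11.76 in iU1-52 on NaCl, a difference of 1.90 (adjusted p = 0.00028). *VAL1* (AT2G30470) and *VAL2* (AT4G32010), which silence the embryo program after germination, both had interactions of 0.39, and neither was called. Vacuolar aquaporins of the seed were called higher as well. *TIP3;1* (AT1G73190) rose by 7.14 in Col-0 and by 9.20 in iU1-52, with 13.79, 14.58 and 14.36 and 16.09, 16.20 and 16.42 on NaCl (interaction 2.06, SE 0.29, adjusted p = 0.0007), and *TIP3;2* (AT1G17810) had an interaction of 2.74 (SE 0.62).

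Of the 22 aquaporins in the list, these 2 were called higher and 3 lower, against 3.78% and 5.36% of all features. The number called lower was 2 without the iU1-52 NaCl array of replicate 1 and 5 without that of replicate 2. *PIP2;6* (AT2G39010), a channel of the plasma membrane, held its level in Col-0 (17.23, 17.26 and 17.16 on MS and 17.07, 17.12 and 17.12 on NaCl). In iU1-52 it went from 17.29, 17.34 and 17.37 to 15.40, 15.17 and 14.82, below all other samples, and all 5 of its probes were called (interaction -2.09, SE 0.17, adjusted p = 2.5e-05). *TIP2;1* (AT3G16240), a channel of the vacuole, fell by 1.2 in Col-0 and by 2.32 in iU1-52.

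Seed oil is turned into sugar by β-oxidation and the glyoxylate cycle during germination. All 12 genes of this group had an interaction above 0, but 2 of 12 were called higher, against 3.78% of all features, and 4 were called without the iU1-52 NaCl array of replicate 1 and 1 with scaling to the 75th percentile. *MFP2* (AT3G06860), a multifunctional enzyme of β-oxidation, read 14.76, 14.92 and 15.07 in Col-0 and 16.22, 16.28 and 16.58 in iU1-52 on NaCl, from 13.63, 13.33 and 13.39 and 13.43, 13.39 and 13.62 on MS (interaction 1.42, SE 0.17, adjusted p = 0.0003). *MLS* (AT5G03860), the malate synthase of the glyoxylate cycle, rose by 8.47 and 9.66, an interaction that was not called with scaling to the 75th percentile (0.83). *ICL* (AT3G21720), the isocitrate lyase of the same cycle, rose almost equally in both lines, by 3.44 and 3.48, with the brightest of 3 probes, and the probes ranged from 0.04 to 1.14, with 1 called.

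Of 15 tested genes of ABA synthesis, breakdown and transport, 5 were called higher, against 3.78% of all features, and 0 lower, with a median of 0.64. *NCED3* (AT3G14440), a dioxygenase of the rate-limiting step of ABA synthesis, read 7.63, 7.52 and 7.64 in Col-0 on MS and 7.03, 7.76 and 7.72 on NaCl, and 7.93, 7.83 and 7.87 and 9.39, 9.24 and 9.51 in iU1-52. It rose on salt in iU1-52, by 1.5, and did not pass in Col-0 (-0.09, adjusted p = 0.64). *ABCG25* (AT1G71960), an ABA exporter, had opposite signs of small responses, -0.50 in Col-0 and 0.83 in iU1-52, and an interaction of 1.33 (SE 0.14, adjusted p = 0.00014). The called genes held both directions of ABA metabolism. Chosen after its values were seen, *CYP707A2* (AT2G29090), which breaks down ABA in imbibed seeds, had responses of -0.16 and 1.17 (interaction 1.33, SE 0.32, adjusted p = 0.012). The lowest value in the list was that of *NCED2* (AT4G18350), with -1.18, which was not called (adjusted p = 0.27). *NCED2* was not above background in Col-0 on MS and read 4.40, 4.24 and 6.34 in iU1-52 on MS.

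Of 18 phosphatases, kinases and bZIP factors of ABA signalling, 4 were called higher, against 3.78% of all features, and 0 lower, with a median of 0.69. The 4 were *HAI3* (AT2G29380), *AHG1* (AT5G51760), *ABI2* (AT5G57050) and *ABF3* (AT4G34000), which are 3 phosphatases that restrain the pathway and a bZIP factor that acts in it. The count was 5 without the iU1-52 NaCl array of replicate 1 and 2 without the Col-0 NaCl array of replicate 1. *AHG1*, a protein phosphatase 2C of seeds that restrains ABA signalling, read 6.92, 6.39 and 7.10 in Col-0 and 7.06, 6.93 and 6.74 in iU1-52 on MS. It rose to 7.63, 8.78 and 8.78 in Col-0 and to 11.43, 11.16 and 11.54 in iU1-52 (interaction 2.88, SE 0.41, adjusted p = 0.00076). *HAI3*, another phosphatase of this clade, rose by 5.99 and 9.02 (interaction 3.03, SE 0.74, adjusted p = 0.013). The kinase *SNRK2.2* (AT3G50500) and the bZIP factor *ABF2* (AT1G45249) had interactions of 0.09 and 0.13, and neither was called. Of 14 listed ABA receptors 10 were tested, and with no filter 2 of the 14 were called higher and 1 lower. Of the 10 tested here, 1 was called, *PYL8* (AT5G53160), which was lower (-1.02, SE 0.15, adjusted p = 0.0009). This call was lost when any of 4 arrays was left out, Col-0 MS replicate 1, iU1-52 MS replicate 2, or iU1-52 NaCl replicate 2 or 3 (between -1.15 and -0.93 over all such fits). *PYL1* (AT5G46790) had an interaction of -0.98, just under the limit, and was called without the iU1-52 NaCl array of replicate 1 (-1.25).

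Among the genes that rose more in iU1-52, the 3 named by the rule above were *LCR67* (AT1G75830), *PEI1* (AT5G07500) and *OPT5* (AT4G26590). *LCR67*, a defensin, read 8.55, 7.91 and 8.69 in Col-0 on MS, 9.85, 11.79 and 11.45 in Col-0 on NaCl, 7.43, 8.07 and 8.72 in iU1-52 on MS and 14.49, 13.96 and 14.27 in iU1-52 on NaCl. The salt groups did not overlap, and the interaction was 3.52 (SE 0.67, adjusted p = 0.0038). *PEI1*, a zinc finger factor of embryo development, had an interaction of 3.02 (SE 0.47), and *OPT5*, an oligopeptide transporter, of 3.01 (SE 0.52). For each of these genes the lowest Col-0 value on NaCl was that of replicate 1.

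By the same rule, the 3 named among genes that rose in iU1-52 alone were *AIG2L* (AT5G39720), *GolS10* (AT5G30500) and *CYP96A9* (AT4G39480). *CYP96A9*, a cytochrome P450, had the tightest replicates, with 7.17, 7.57 and 7.48 in Col-0 on MS, 7.10, 7.64 and 7.39 in Col-0 on NaCl, 7.00, 6.86 and 6.73 in iU1-52 on MS and 9.27, 9.10 and 9.40 in iU1-52 on NaCl (interaction 2.42, SE 0.21, adjusted p = 4.8e-05). *AIG2L*, of a family first found as induced by bacterial avirulence, had an interaction of 2.63 (SE 0.51). *GolS10*, a galactinol synthase at the entry to the raffinose sugars, had one of 2.49 (SE 0.43).

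**Figure D4:**
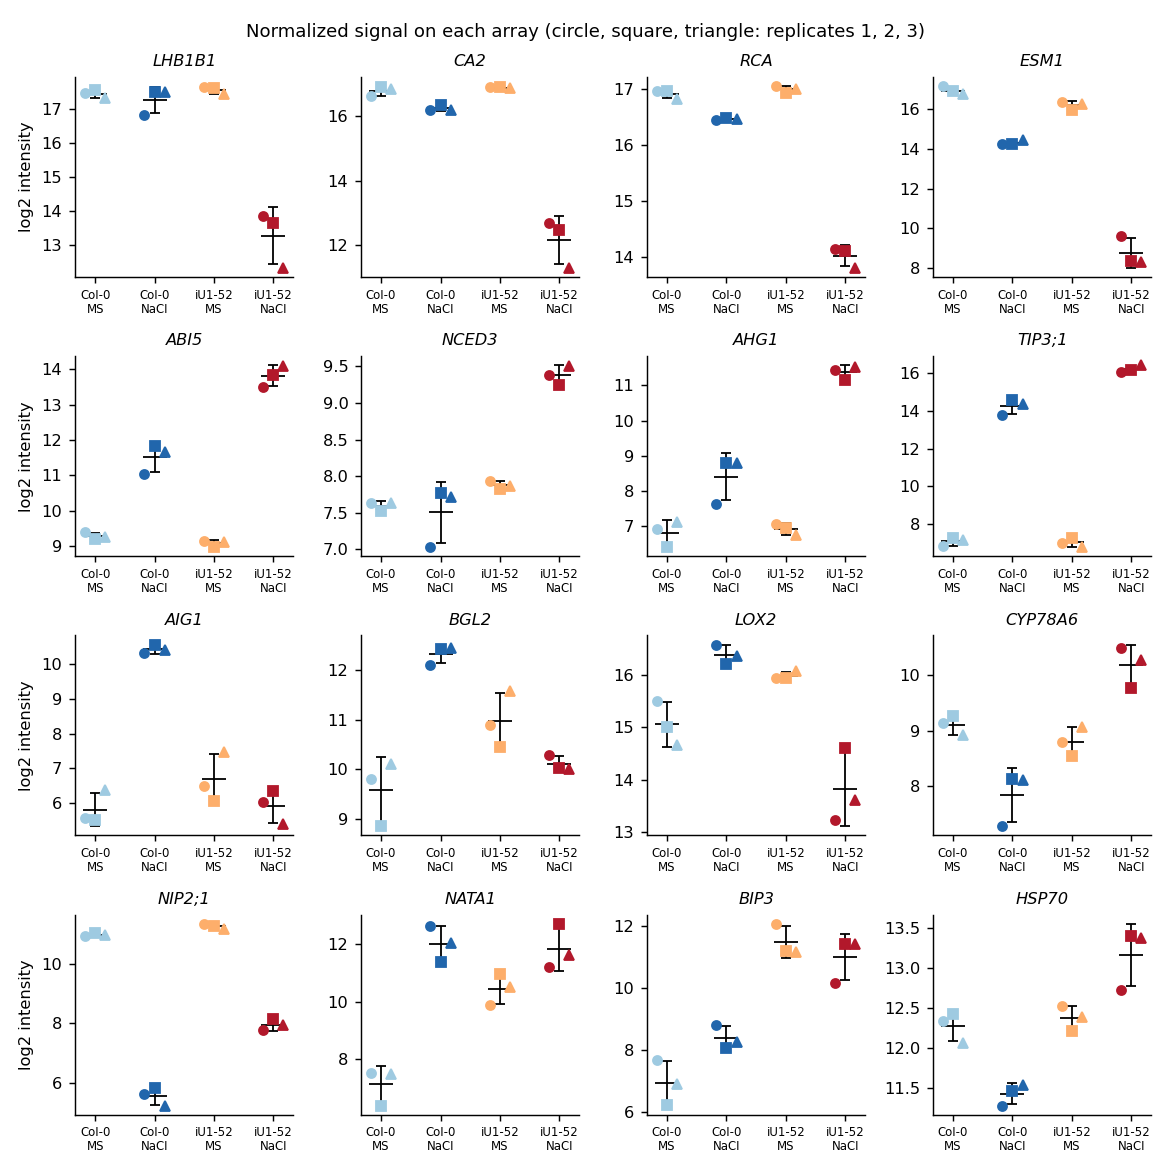
Log2 normalized intensity of 16 genes on each of the 12 arrays, by group, with the mean and SD of 3 arrays in black (vertical axes differ between genes and do not start at 0). The 3 iU1-52 samples on NaCl (dark red) stand below the other 9 for *LHB1B1*, *CA2* and *RCA* and above them for *ABI5* and *NCED3*, while *AIG1* and *BGL2* are high in the Col-0 samples on NaCl (dark blue).

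Opposite salt responses were called for 27 features, and 2 genes of jasmonate synthesis were among them. *LOX2* (AT3G45140), the plastid lipoxygenase that starts jasmonate synthesis, read 15.50, 15.01 and 14.66 in Col-0 on MS and 16.59, 16.21 and 16.36 on NaCl. In iU1-52 it read 15.94, 15.94 and 16.08 on MS and 13.23, 14.60 and 13.60 on NaCl. It rose by 1.33 in Col-0 (adjusted p = 0.0031) and fell by 2.17 in iU1-52 (adjusted p = 0.0001), the salt and MS samples of a line did not overlap in either, and all 4 probes were called (interaction -3.51, SE 0.44, adjusted p = 0.00032). Of the 21 genes of jasmonate synthesis and response, 6 were called lower and 1 higher, against 5.36% and 3.78% of all features, and 2 of the 6 were opposite, *LOX2* and *AOC2* (AT3G25770), an allene oxide cyclase that acts after it (1.35 in Col-0 and -1.17 in iU1-52, named after its values were seen). *AOC3* (AT3G25780), of the same enzyme family, rose about equally, by 2.12 and 2.38. Over the 21 genes, the median difference of iU1-52 from Col-0 was 0.65 on MS and -0.18 on NaCl. On NaCl, 4 of them were called lower in iU1-52 and 1 higher, against 5.76% and 4.94% of all features.

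The storage protein *VSP2* (AT5G24770), a marker of jasmonate in leaves, read 14.61, 14.12 and 14.09 in Col-0 and 12.20, 12.92 and 12.57 in iU1-52 on NaCl, from 13.62, 13.37 and 13.20 and 14.37, 14.51 and 14.27 on MS, with an interaction of -2.70 (SE 0.28, adjusted p = 0.00011). Its level on MS was higher in all 3 iU1-52 samples than in the Col-0 samples, and on NaCl the order was reversed. Opposite responses were also named for *LTP6* (AT3G08770), *ROT4* (AT2G36985) and *CYP78A6* (AT2G46660). *LTP6*, a lipid transfer protein, rose by 1.06 in Col-0 and fell by 1.92 in iU1-52, with 14.39, 14.19 and 14.38 and 11.83, 11.11 and 10.93 on NaCl (interaction -2.98, SE 0.35, adjusted p = 0.00022). *ROT4*, a small peptide that shapes leaves, rose by 1.40 and fell by 1.5 (interaction -2.90, SE 0.48, adjusted p = 0.0018). *CYP78A6*, a cytochrome P450 that promotes seed size, was the only one of these 4 named genes to go the other way. It read 9.13, 9.26 and 8.92 in Col-0 on MS, 7.29, 8.14 and 8.11 in Col-0 on NaCl, 8.80, 8.54 and 9.07 in iU1-52 on MS and 10.48, 9.76 and 10.27 in iU1-52 on NaCl (interaction 2.62, SE 0.36, adjusted p = 0.00055).

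Among transcripts that rose on salt in Col-0 alone, those named by the rule above were *AIG1* (AT1G33960), *BGL2* (AT3G57260) and *MBP1* (AT1G52040). *AIG1*, a GTP-binding protein induced by bacterial avirulence, read 5.57, 5.51 and 6.37 in Col-0 on MS and 10.30, 10.55 and 10.40 on NaCl, against 6.51, 6.06 and 7.48 and 6.02, 6.36 and 5.39 in iU1-52. The rise of 4.60 in Col-0 had no counterpart in iU1-52, where the change was -0.76 (adjusted p = 0.089), and the interaction was -5.36 (SE 0.52, adjusted p = 7.3e-05). *BGL2*, also known as *PR2* (AT3G57260), a glucanase and a marker of salicylic acid defence, read 9.81, 8.85 and 10.10 and 12.10, 12.43 and 12.43 in Col-0 and 10.89, 10.45 and 11.57 and 10.29, 10.02 and 10 in iU1-52, on MS and NaCl (interaction -3.60, SE 0.46, adjusted p = 0.00037). *MBP1*, a myrosinase-binding protein, rose by 2.34 in Col-0 (interaction -3.04, SE 0.46). For each of these 3 genes the mean on MS was higher in iU1-52, by 0.87, 1.38 and 1.2, differences that were not called (adjusted p = 0.75, 0.14 and 0.22).

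Salicylic acid defence as a list was mixed, with 1 of 18 genes called higher and 4 lower, against 3.78% and 5.36% of all features. *WRKY38* (AT5G22570), a repressor of basal defence, rose by 2.41 in Col-0 and read 10.81, 11.34 and 10.82 there and 10.04, 9.03 and 9.45 in iU1-52 on NaCl (interaction -2.55, SE 0.39, adjusted p = 0.0011). *NIMIN1* (AT1G02450), which binds the salicylic acid regulator NPR1, was called higher. It fell in Col-0, from 7.31, 7.65 and 7.87 to 5.42, 5.18 and 4.67, and in iU1-52 it read 7.90, 8.03 and 8.05 on MS and 7.04, 7.57 and 6.98 on NaCl, a change of -0.80 that was not called (interaction 1.72, SE 0.30, adjusted p = 0.0025). *FMO1* (AT1G19250), a monooxygenase of systemic resistance, had an interaction of 0.89 (adjusted p = 0.099) and was called without the iU1-52 NaCl array of replicate 1 (1.24). Without that array the list had 2 called higher and 4 lower. With normexp background correction the interaction of *NIMIN1* was 0.67 and was not called.

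Among the genes named that fell on salt in Col-0 alone, *ORS1* (AT2G41230), a small protein that promotes organ growth, had the smallest SE. It read 10.78, 10.39 and 10.61 in Col-0 on MS, 8.78, 8.61 and 8.40 in Col-0 on NaCl, 10.03, 10.16 and 10.42 in iU1-52 on MS and 10.58, 10.46 and 10.73 in iU1-52 on NaCl, so that only the Col-0 samples on salt were low (interaction 2.38, SE 0.20, adjusted p = 3.1e-05). *MYB90* (AT1G66390), an activator of anthocyanin synthesis, had an interaction of 2.04 (SE 0.64, adjusted p = 0.037), a call that was kept only when the array left out was Col-0 MS replicate 2, Col-0 NaCl replicate 2, iU1-52 MS replicate 3 or iU1-52 NaCl replicate 1 or 2 (between 1.67 and 2.58 over the fits, adjusted p up to 0.089). *PDF1.3* (AT2G26010), a defensin, had one of 1.90 (SE 0.55), which was lost without replicate 1 of Col-0 on MS or of Col-0 on NaCl (between 1.44 and 2.18 over the fits, adjusted p up to 0.070).

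Of the transcripts that rose less in iU1-52, the rule named *NATA1* (AT2G39030), *JRG21* (AT3G55970) and *JAZ7* (AT2G34600). *NATA1*, an ornithine acetyltransferase induced by jasmonate, read 7.52, 6.40 and 7.48 in Col-0 on MS and 12.62, 11.38 and 12.04 on NaCl, and 9.87, 10.95 and 10.52 and 11.19, 12.70 and 11.62 in iU1-52. The salt groups overlapped between the lines, and the interaction of -3.49 (SE 0.66, adjusted p = 0.0036) came with a higher level in iU1-52 on MS, by 3.32 (adjusted p = 0.015). *JRG21*, a jasmonate-regulated oxygenase, was also higher on MS in iU1-52, by 3.40 (adjusted p = 0.0029), and rose by 4.83 in Col-0 and 2.69 in iU1-52 (interaction -2.14, SE 0.51). *JAZ7*, a jasmonate repressor, rose by 4.00 and 2.36 (interaction -1.64, SE 0.46, adjusted p = 0.025). The *JAZ7* call was lost without Col-0 MS replicate 1, Col-0 NaCl replicate 1 or 2, iU1-52 MS replicate 2 or iU1-52 NaCl replicate 3 (between -1.90 and -1.33 over the fits, adjusted p up to 0.063).

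Some genes fell less on salt in iU1-52. *NIP2;1* (AT2G34390), a channel protein of the aquaporin family, read 10.93, 11.02 and 10.95 in Col-0 on MS and 5.63, 5.83 and 5.24 on NaCl. In iU1-52 it read 11.33, 11.27 and 11.17 on MS and 7.76, 8.16 and 7.93 on NaCl, 2.38 above the Col-0 samples on salt (interaction 2.09, SE 0.20, adjusted p = 7.3e-05). *SRO4* (AT3G47720), a member of a small stress-related family, fell by 3.85 and 2.27 (interaction 1.58, SE 0.34). The defensin *PDF1.2b* (AT2G26020) fell by 3.67 and 1.31 (interaction 2.36, SE 0.75, adjusted p = 0.04). Its within-slide values were 5.55, 0.51 and 1.06, and its call was kept only when the array left out was Col-0 MS replicate 3, Col-0 NaCl replicate 2, iU1-52 MS replicate 2 or iU1-52 NaCl replicate 1 (between 1.82 and 2.72 over the fits, adjusted p up to 0.089). *PDF1.2* (AT5G44420), its close relative, was not above background in Col-0 on NaCl and read 7.74, 6.69 and 6.91 in iU1-52 there, at least 9.03-fold higher than in Col-0. With normexp background correction, the interactions of *NIP2;1* (0.85) and *PDF1.2* (0.87) were not called.

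UDP-GlcNAc feeds the N-glycosylation of proteins that fold in the endoplasmic reticulum (ER), so folding genes were listed. Of 28, 26 had an interaction above 0, 4 were called higher and 1 lower, against 3.78% and 5.36% of all features, and the median was 0.46. The number called higher was 7 without the iU1-52 NaCl array of replicate 1, and 2 without iU1-52 MS replicate 2, without iU1-52 NaCl replicate 3 or with scaling to the 75th percentile. *TIN1* (AT5G64510), a gene induced by tunicamycin, an inhibitor of N-glycosylation, read 8.66, 8.65 and 8.44 in Col-0 on MS and 7.99, 7.74 and 7.69 on NaCl. In iU1-52 it read 10.24, 9.74 and 10.02 on MS and 10.53, 10.94 and 10.67 on NaCl, higher than Col-0 in both media, and the line difference grew from 1.42 to 2.91 (interaction 1.49, SE 0.21, adjusted p = 0.00062). *TMS1* (AT3G08970), a J-domain cochaperone of the ER, rose by 1.01 and 2.34 (interaction 1.33, SE 0.28, adjusted p = 0.0061).

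*BIP3* (AT1G09080), the inducible member of the BiP chaperones, behaved differently. It read 7.68, 6.23 and 6.89 in Col-0 on MS and 12.07, 11.19 and 11.17 in iU1-52 on MS, a line difference of 4.54 (adjusted p = 0.0015), and 8.81, 8.07 and 8.25 in Col-0 and 10.16, 11.44 and 11.42 in iU1-52 on NaCl. It rose in Col-0 and not in iU1-52, where it was already high without salt (interaction -1.92, SE 0.62, adjusted p = 0.043). The call of *BIP3* was kept only when the array left out was Col-0 MS replicate 1 or one of the 3 iU1-52 NaCl arrays, and over all such fits the value lay between -2.29 and -1.5 (adjusted p up to 0.10). *CRT3* (AT1G08450), a calreticulin, had an interaction of -0.02 (adjusted p = 0.91).

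Of 10 genes of the hypoxia response, 5 were called higher, against 3.78% of all features, and 0 lower, with a median response of -1.14 in Col-0 and -0.20 in iU1-52. *PDC1* (AT4G33070), a pyruvate decarboxylase of fermentation, fell by 2.74 in Col-0 and by 1.09 in iU1-52, with 11.53, 11.51 and 11.38 and 12.55, 13.44 and 13.74 on NaCl (interaction 1.65, SE 0.33, adjusted p = 0.0044). *HRA1* (AT3G10040), a factor that tempers this response, read 12.17, 12.70 and 11.93 in Col-0 and 13.70, 13.69 and 13.94 in iU1-52 on NaCl, from 13.59, 13.49 and 13.80 and 13.62, 13.62 and 13.67 on MS, so that only Col-0 fell (interaction 1.5, SE 0.24, adjusted p = 0.0014). *SUS4* (AT3G43190) and *HRE2* (AT2G47520), a sucrose synthase and a factor of the same response, had interactions of 0.61 and -0.09 and were not called.

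With the 2-fold limit, 1 of 24 cell cycle and replication genes was called lower, near the 5.36% of all features. It was *CYCB1;1* (AT4G37490), a B-type cyclin, which read 10.43, 10.28 and 10.42 in Col-0 and 9.50, 9.16 and 9.30 in iU1-52 on NaCl, from 8.88, 8.80 and 9.06 and 8.98, 8.92 and 8.96 on MS (interaction -1.10, SE 0.14, adjusted p = 0.00037). Without the iU1-52 NaCl array of replicate 1, 5 of these genes were called lower. On adjusted p alone, 13 of the 24 were lower and 1 higher, against 3385 and 3360 of all 23936 features. The median interaction of the 24 was -0.46. In the flavonoid pathway 1 of 10 genes was called, near the 9.14% of all features, *TT7* (AT5G07990), a flavonoid hydroxylase (1.16, SE 0.19), and 2 were called without the iU1-52 MS array of replicate 3. *DFR* (AT5G42800) and *LDOX* (AT4G22880), which lead to anthocyanins, rose in both lines, and their interactions of -1.40 and -1.52 had SE of 1.39 and 1.19. The 4 root hair markers *EXPA7* (AT1G12560), *EXPA18* (AT1G62980), *COBL9* (AT5G49270) and *PRP3* (AT3G62680) had interactions from -0.63 to 0.73, and 0 were called. *PRP3* was called without the iU1-52 NaCl array of replicate 1 (1.13).

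Among the 199 features for which neither salt response passed by itself, the difference between the lines was called without a called response in either. *COL1* (AT5G15850), a CONSTANS-like protein, was the most precise of those named, with 11.49, 11.36 and 11.49 in Col-0 on MS, 12.08, 12.16 and 12.31 in Col-0 on NaCl, 11.48, 11.40 and 11.39 in iU1-52 on MS and 10.53, 10.45 and 10.76 in iU1-52 on NaCl (interaction -1.57, SE 0.13, adjusted p = 3.1e-05). *ARR7* (AT1G19050), a response regulator of cytokinin signalling, and *ICK5* (AT1G49620), an inhibitor of cyclin-dependent kinases, had interactions of -1.78 (SE 0.35) and -1.56 (SE 0.27). On the higher side, *HSP70* (AT3G12580), a heat shock chaperone of the cytosol, read 11.28, 11.46 and 11.53 in Col-0 and 12.72, 13.40 and 13.38 in iU1-52 on NaCl, from 12.34, 12.43 and 12.06 and 12.52, 12.21 and 12.38 on MS (interaction 1.64, SE 0.25, adjusted p = 0.0011). *SWEET1* (AT1G21460), a glucose transporter, had an interaction of 1.5 (SE 0.29), and *AZI1* (AT4G12470), a lipid transfer protein of systemic immunity, one of 1.53 (SE 0.48, adjusted p = 0.037). The *AZI1* call was kept only when the array left out was Col-0 MS replicate 1, iU1-52 MS replicate 3 or iU1-52 NaCl replicate 1 (between 1.17 and 1.96 over the fits, adjusted p up to 0.084).

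**Figure D5:**
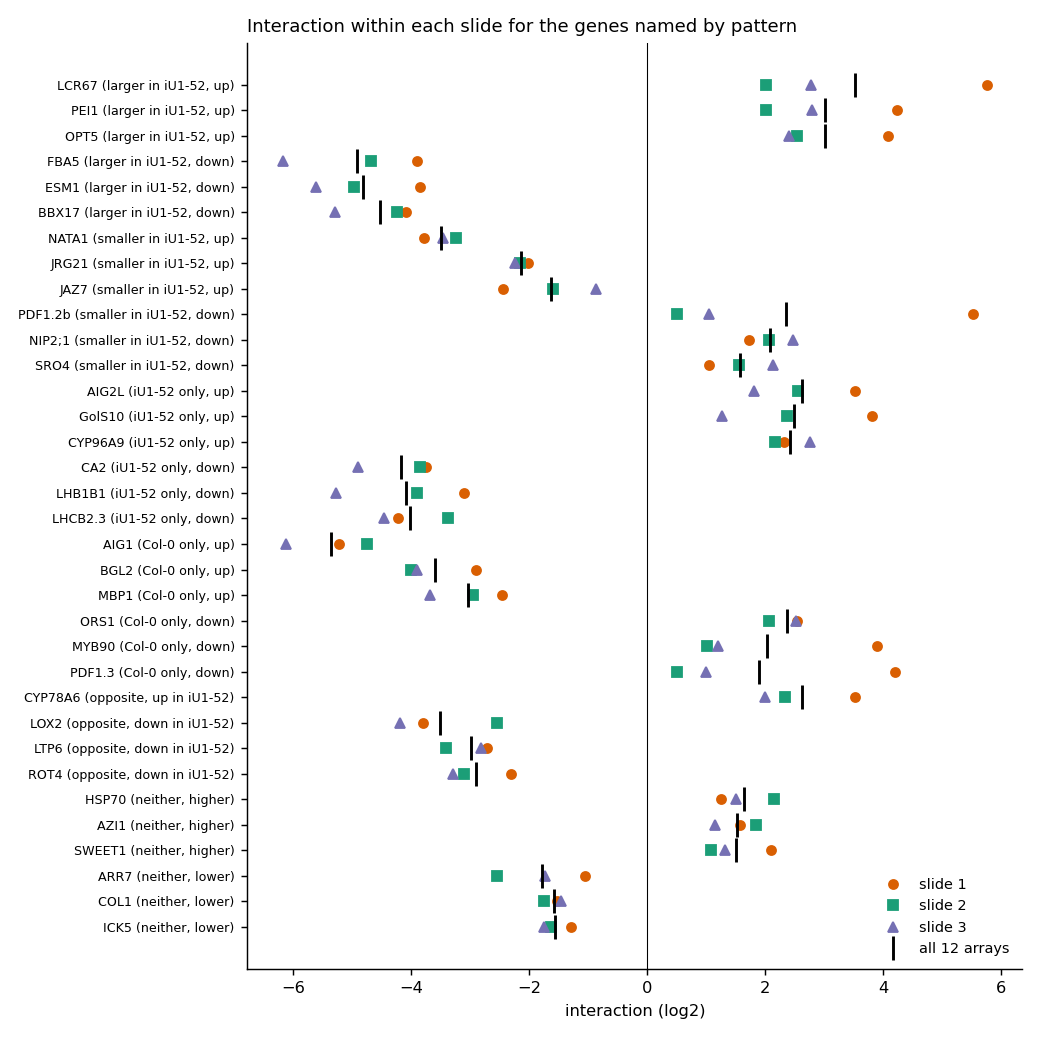
Interaction of the 34 genes named by pattern, in log2 units, from the 4 arrays of each slide (symbols) and from all 12 arrays (black bars). The same sign of the 3 within-slide values was a condition for naming these genes, so it is no result. The values range most widely for *PDF1.2b*, from 0.51 to 5.55.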

How the data were processed

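Agilent one-colour arrays were hybridized with Cy3-labelled RNA of whole seedlings, and the labels give 3 replicates for each of 4 groups. The methods state that labelled products were pooled before hybridization without saying which, and the arrays were treated as separate samples, as labelled. The authors deposited the Feature Extraction output of each array, in which the intensity of each spot was background-subtracted on a linear scale and was not normalized between arrays. Control spots and spots flagged as outliers (2 to 10 per array) were removed, replicate spots of a probe were averaged, all 43603 probes were quantile normalized, and log2 values were taken. Probes with a deposited signal under 100 on every array were then dropped, which left 31498. Probes were named through their accessions with the RefSeq table of TAIR10.1 (34358 matched), and the probe with the highest mean stood for a gene with several, which gave 23936 features (20282 genes and 3654 unmatched probes). Genes listed under another symbol in that table were matched by locus.

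The contrasts were fitted with limma 3.58.1 under R 4.3.3, with lmFit and eBayes on 1 mean for each group over 12 arrays, and with Benjamini-Hochberg adjustment over all features, and the procedure was tested on simulated data. The members and gene lists were chosen with earlier results of these data known. In each pattern, the 3 genes with the largest interaction were named among genes with a symbol, well above background on all 12 arrays and with 1 sign on all slides. The 2 highest and 2 lowest members of each list could be named as well, with every member of lists of 5 or fewer. Some of these are not given above. Results were recomputed with 75th percentile scaling, with normexp correction of the median pixel intensities (offset 50), with 3 other filters and with array weights, a replicate block, the mean of the probes or each probe alone, an unmoderated spread, each criterion alone and each array left out. No saturated spots were found. The number of arrays limits the precision of every value.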

Additional observations from a re-analysis of the deposited data

Results flagged for a closer look

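The salt response differed between Col-0 and iU1-52 by a test of the difference itself in 2187 features, which is the comparison reported above. In 27 features both salt responses were called and had opposite signs, and 4 of the genes named by pattern were of this kind. Their interactions were 2.62 for *CYP78A6*, -3.51 for *LOX2*, -2.98 for *LTP6* and -2.90 for *ROT4*.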

How the results depend on the processing

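Under all alternatives with a value, no called interaction of a named gene changed sign. The number of called features was within 1.5 times the 2187 except on adjusted p alone (6745, with 3360 higher and 3385 lower). It was 1627 with normexp, 2018 with the unmoderated spread, 2410 with no filter and 3041 with array weights. The called higher features numbered 1387 with array weights. On the intensity scale without log, the interaction kept its sign for 2108 of the 2187. Among the 440 features that fell more in iU1-52 it did so for 373. Opposite salt responses numbered 11 with normexp and 415 on adjusted p alone, and the salt responses called on adjusted p alone were 16536 in Col-0 and 16254 in iU1-52. With each array left out, the called features numbered between 1925 and 3150 (763 to 1455 higher, 1162 to 1695 lower), opposite responses between 19 and 32, and called salt responses between 5455 and 5611 in Col-0 and between 6415 and 6671 in iU1-52. The lowest count came without Col-0 NaCl replicate 1 and the highest without iU1-52 NaCl replicate 1, and among these counts the omission that moved one by over 1.5 times was the latter (1455 called higher). Counts of gene lists that moved by more stand beside them above. The fit with the replicate block, which is also the slide, gave 2181 called features, 2147 of them among the 2187. The replicate numbers were not shown to pair the samples, since 5 of 18 same-number pairs of arrays had deviations correlated over 0.1 (range -0.05 to 0.22), although 9 of 12 arrays correlated best with their own number. The block lost the calls of *PDF1.2b* and *BIP3* among the named genes. Normexp lost those of *JRG21*, *NIP2;1*, *NIMIN1*, *PDF1.2*, *PDF1.2b*, *MYB90*, *BIP3* and *CYCB1;1*, and the unmoderated spread those of *JAZ7*, *MYB90*, *PDF1.2b*, *PDF1.3*, *AZI1*, *SESA3* and *BIP3*. No filter lost those of *PDF1.2b*, *MYB90*, *AZI1*, *SESA3* and *BIP3*, and array weights those of *PDF1.2b*, *PDF1.3* and *SESA3*. Scaling to the 75th percentile lost that of *MLS*. The genes *CRU2*, *CRA1*, *LEA4-5* and *PYL13* were called with normexp. The cause of these changes was not tested. Scaling to the 75th percentile moved the share of called features that were higher from 41.3% to 37.2%.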

Other observations

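Gene families that were not among the lists were counted by the start of their symbols, after their values had been seen and without a test, and are to be read against the 3.78% of all features called higher and the 5.36% called lower. Of 14 tested genes whose symbol starts with SAUR, a family of small auxin-induced growth genes, 9 were called lower for the interaction and 0 higher, with a median salt response of -3.31 in Col-0 and -4.83 in iU1-52. Members of this family lie in arrays of close copies, and their probes may share signal. Of 24 heat shock proteins with a symbol starting with HSP, 8 were called higher and 0 lower, with a median response of -0.14 in Col-0 and 0.21 in iU1-52. *HSP21*, a small heat shock protein of the chloroplast, had a response of -1.30 in Col-0, which was not called, and rose by 3.26 in iU1-52, with an interaction of 4.55 (limma adjusted p = 0.0038). Of 54 NAC transcription factors, 8 were called higher and 1 lower. Of 15 SPL factors, which act in the passage from the juvenile to the adult stage, 0 were called higher and 5 lower, and of 27 XTH genes of cell wall loosening the counts were 1 and 5.

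The lowest interaction of all features was that of *ESP* (AT1G54040), a protein that turns glucosinolate breakdown toward nitriles, with -7.73 and a large SE of 1.76, from responses of 1.90 in Col-0 and -5.83 in iU1-52. The response of *ESP* in Col-0 was not called. *PAP14*, a purple acid phosphatase, followed with -7.31 (SE 1.63). The within-slide values of *ESP* were -4.42, -7.18 and -11.6.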
